A study of Rattus norvegicus with 6 samples.

Results

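Serotonin receptor genes were examined in the dorsal root ganglion (DRG), the cluster of sensory neuron cell bodies beside the spinal cord, after chronic constriction injury (CCI) of the sciatic nerve. The 10 genes were Htr1b, Htr1d, Htr1f, Htr2a, Htr2b, Htr2c, Htr3a, Htr3b, Htr4 and Htr7. Members were taken by gene symbol from the 43350 rows of the deposited expression table, and where a symbol had several rows a protein-coding row came first and then the row with more reads. This found 9 of the 10 genes, since no row carried the symbol Htr7, and 8 of the 9 reached the filter, a mean of 0.5 FPKM. FPKM scales the reads of a row by its length and by the total of the library, and CPM by the total alone, so levels are compared between genes in FPKM only. Htr2c lay under the filter and is described from its values and from a fit without a filter.

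Male Sprague-Dawley rats either had the left sciatic nerve tied loosely (CCI) or had it exposed and left untied (sham). Ganglia of the operated side at the lumbar levels that feed this nerve were taken 11 days after surgery, from 3 CCI and 3 sham rats. According to the methods each sample is 1 rat, which was followed here, although the labels mention pooling and list no treatment for the sham rats. Since 1 operated ganglion sample holds injured and spared neurons, glia, vessels and immune cells together, fewer cells of a type and less RNA per cell cannot be told apart in any value below.

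Serotonin, also called 5-HT, is released in peripheral tissue mainly by platelets and mast cells, and in the spinal cord by fibres descending from the brainstem. Most of its receptors are G-protein-coupled. Htr1b, Htr1d and Htr1f couple to Gi/o and lower cyclic AMP, and they are the targets of the triptans used in migraine. Htr2a, Htr2b and Htr2c couple to Gq/11 and phospholipase C, whereas Htr4 and Htr7 couple to Gs and raise cyclic AMP. Htr3a and Htr3b are different in kind, being subunits of a cation channel that serotonin opens directly. Several of these receptors are known in sensory neurons, where they can excite or inhibit the cell according to the receptor.

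The start regions of 3 members on which the comparison turns are shown, Htr1b as the member with the lowest p-value among those higher in CCI, Htr1d and Htr3b as members of different families that were lower. Each is 250 bases before and 50 bases after the gene's start in RefSeq, 5′ to 3′ on the gene's own strand, with the bases after the start in capitals. The build is GRCr8, which is not the one the deposited table uses. Htr1b lies at chr8:91414766-91415065 on the minus strand, Htr1d at chr5:153939485-153939784 on the plus strand and Htr3b at chr8:58204890-58205189 on the minus strand.
Htr1b: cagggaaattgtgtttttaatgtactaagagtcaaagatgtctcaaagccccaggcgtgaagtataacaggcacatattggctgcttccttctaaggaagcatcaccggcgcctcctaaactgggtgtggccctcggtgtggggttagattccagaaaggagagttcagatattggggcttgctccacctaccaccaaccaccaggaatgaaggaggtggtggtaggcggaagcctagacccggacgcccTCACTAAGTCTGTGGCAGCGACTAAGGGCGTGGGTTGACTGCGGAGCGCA
Htr1d: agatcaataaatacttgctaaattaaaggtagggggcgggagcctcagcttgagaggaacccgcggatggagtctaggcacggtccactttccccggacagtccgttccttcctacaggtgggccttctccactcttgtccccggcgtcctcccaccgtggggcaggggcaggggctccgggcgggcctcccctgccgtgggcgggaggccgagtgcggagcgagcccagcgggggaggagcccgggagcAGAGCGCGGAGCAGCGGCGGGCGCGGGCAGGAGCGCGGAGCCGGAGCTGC
Htr3b: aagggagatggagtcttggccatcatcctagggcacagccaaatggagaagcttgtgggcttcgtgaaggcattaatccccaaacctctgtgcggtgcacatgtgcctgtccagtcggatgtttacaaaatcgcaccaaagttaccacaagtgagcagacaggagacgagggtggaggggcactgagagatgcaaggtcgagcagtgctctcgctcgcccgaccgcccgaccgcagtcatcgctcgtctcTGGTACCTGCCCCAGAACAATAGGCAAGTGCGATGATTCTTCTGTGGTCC

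Start regions were matched for 7 of the 10 genes, and those of Htr2a, Htr3a and Htr4 were not analysed here. The Htr1d region was rich in G and C at 69.3%, against 53.7% for Htr1b and 56.0% for Htr3b. Over 33469 rat start regions of the same length the median was 51.7%, with 68.7% at the 90th percentile. Htr1f stood at the other end, with 26.3% against a 10th percentile of 38.7%, and Htr7 was highest at 79.7%. Motifs were searched on both strands. The AP-1 letters TGACTCA were in none of the 7 regions and in 4.63% of all regions. The TATA letters TATAAA, the E-box letters CACGTG and the full cyclic AMP response element TGACGTCA were also in none of the 7, against 14.2%, 6.42% and 1.83% of all regions. The shorter element TGACG, which the full element contains, was in the Htr7 region only, against 21.2% of all regions. These are matches of letters in a short window and say nothing about binding.

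The 6 libraries held 75423546 to 87615743 counted reads each. Of the 26663 rows that passed the filter, 686 (2.57%) were higher and 336 (1.26%) lower in CCI at the limits the study used, namely a log2 fold change of 0.58 or more in either direction together with an unadjusted p below 0.05. Markers of injured neurons, a list of 8 genes with Atf3, Gal and Npy among them, were all called higher, with summed levels of 726, 490 and 421 CPM in CCI 1, 2 and 3 against 175 to 187 CPM in sham. General sensory neuron markers were present in every library, and of 14 tested 0 were called, while their sum was 7430 to 7950 CPM in CCI and 8360 to 9340 CPM in sham. Without Nefh, the heavy neurofilament of large neurons, the sums of the other 13 overlapped. Those 13 include Prph, which was higher in CCI, at 1540 to 1630 CPM against 1190 to 1460 CPM in sham. At an unadjusted p under 0.05 (edgeR), 5 of the 14 markers were lower and 1 higher. Skeletal muscle markers, of which 5 of 8 tested were called lower, reached 423 CPM in sham 1 against 9.01 to 54.3 CPM in the other libraries, so sham 1 stood apart in that tissue.

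None of the 8 tested receptor genes passed the study's limits in either direction, against 2.57% (higher) and 1.26% (lower) of all tested rows. At an unadjusted p under 0.05 without the fold limit, Htr1b was higher in CCI and Htr1d, Htr3a and Htr3b were lower. That is 1 of 8 higher and 3 of 8 lower, where 5.57% of all rows were higher and 5.18% lower. After Benjamini-Hochberg adjustment over all rows of edgeR's quasi-likelihood p-values, 0 of the 8 had an adjusted p under 0.05, against 0.0938% of all rows. DESeq2 put Htr1b and Htr3b under that limit, among 751 of the 26663 rows. In 6 of the 8 genes the 3 CCI libraries did not overlap the 3 sham libraries, against 17.3% of all tested rows, the exceptions being Htr2a and Htr4. The median log2 fold change was 0.06 over the members and 0.00554 over all rows.

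**Figure D1:**
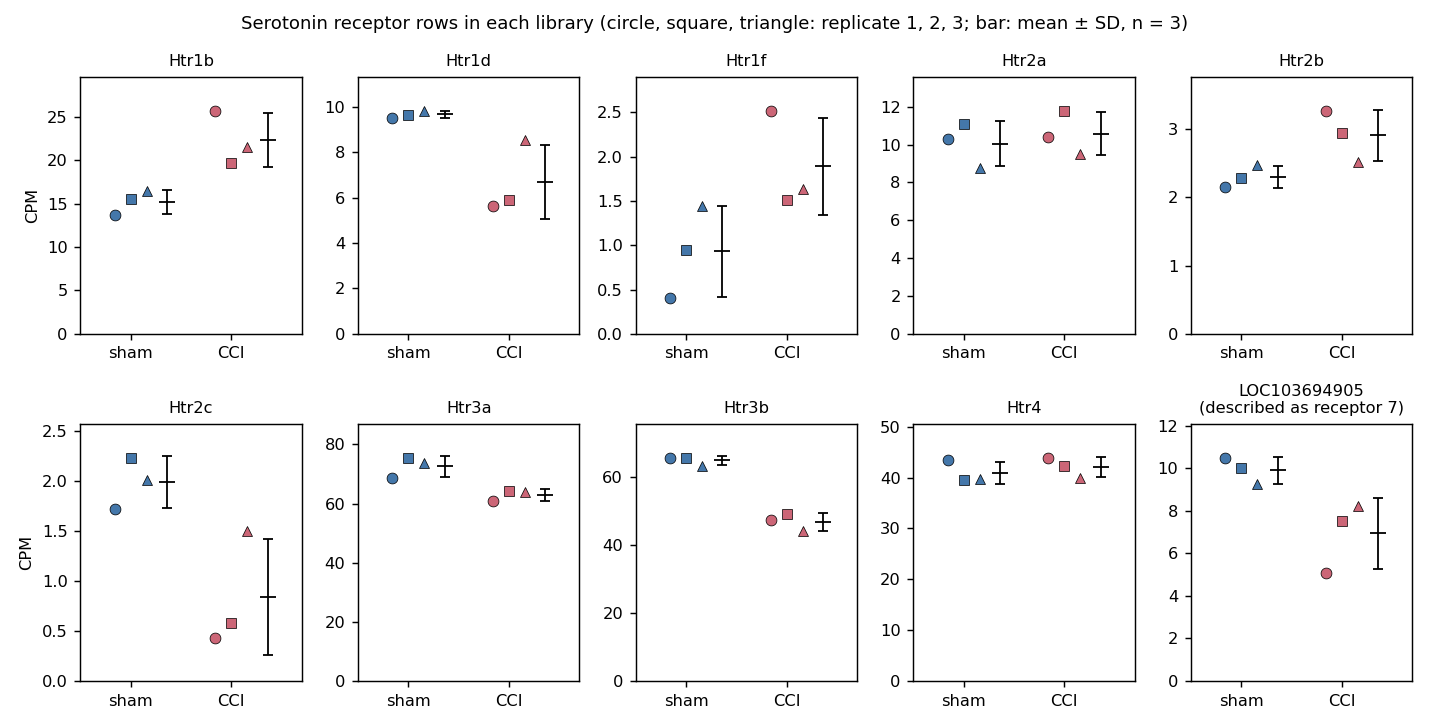
Level in CPM (vertical axis from 0, a scale for each panel) of 9 serotonin receptor genes and of the row described as receptor 7, in 3 sham (blue) and 3 CCI (red) libraries, with the mean and SD beside them. Htr1b lay between 19.7 and 25.7 CPM in CCI and between 13.7 and 16.4 CPM in sham, whereas Htr3b lay between 44.0 and 49.0 CPM in CCI and between 63.4 and 65.7 CPM in sham.

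By length-corrected level the subunits of the channel came first. In sham ganglia Htr3a stood at 32.9 ± 1.36 FPKM (SD, n = 3) and Htr3b at 23.6 ± 0.623 FPKM (SD, n = 3). Htr1d followed at 7.78 ± 0.0708 FPKM and Htr4 at 4.10 ± 0.257 FPKM. Row lengths enter this order, with 1235 bases for Htr1d, 5918 for Htr1b and 9916 for Htr4. Htr4 held 20263 reads in all and Htr1d 3999, so Htr1d ranked above Htr4 only after division by these lengths. Htr1b, Htr2a and Htr2b stood at 2.56 ± 0.207, 1.97 ± 0.24 and 1.05 ± 0.0652 FPKM. Htr1f at 0.597 ± 0.331 FPKM and Htr2c at 0.408 ± 0.0505 FPKM were lowest. Among neighbours in this order, Htr1f and Htr2c were the only pair whose sham libraries overlapped. The order of the means was the same in CCI, where Htr4 (4.07 to 4.43 FPKM) and Htr1b (3.35 to 4.35 FPKM) overlapped, and so did Htr2b and Htr1f.

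Of the Gi/o-coupled receptors, Htr1b was the one higher in CCI at an unadjusted p under 0.05. Its row (chromosome 8, 89113054 to 89133025, minus strand) was counted at 25.7, 19.7 and 21.5 CPM in CCI 1, 2 and 3. In sham 1, 2 and 3 it was counted at 13.7, 15.5 and 16.4 CPM. All CCI libraries were above all sham libraries, with CCI 1 the highest. On the log2 scale CCI was higher by 0.55 (SE 0.12, 95% interval 0.25 to 0.85, unadjusted p = 0.00359), or a mean of 146% of sham, and the adjusted p was 0.208 by edgeR's quasi-likelihood test (Benjamini-Hochberg). The difference was just under the study's fold limit and passed it without CCI 2 (0.63) or without sham 3 (0.61). A second row with the symbol Htr1b, on the opposite strand of the same locus and overlapping the first, held 301 reads in all and had a log2 fold change of 0.31 (unadjusted p = 0.571). The main row held 1209 to 2087 reads per library. Whether strand was used in counting is not stated.

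Htr1d, the closest relative of Htr1b, lay in the opposite direction. Its row (chromosome 5, 154800226 to 154801350, plus strand) was counted at 5.62, 5.88 and 8.54 CPM in CCI 1, 2 and 3. In sham the values were 9.52, 9.65 and 9.83 CPM. The sham libraries were nearly equal, and CCI 3 lay close under them while CCI 1 and CCI 2 were well below. The log2 fold change was -0.53 (SE 0.18, 95% interval -0.96 to -0.10, unadjusted p = 0.0229), with an adjusted p of 0.367 by edgeR's quasi-likelihood test (Benjamini-Hochberg). Without CCI 3 the difference was -0.75 (unadjusted p = 0.000865) and passed the study's limits. Without any other single library the p-value lay between 0.0502 and 0.0699, so the unadjusted p under 0.05 was lost.

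Htr1f, a receptor of the same family targeted by the ditans, was the most variable member between sham rats relative to its mean. It was counted at 2.52, 1.51 and 1.64 CPM in CCI 1, 2 and 3 and at 0.409, 0.945 and 1.44 CPM in sham 1, 2 and 3 (chromosome 11, 1982113 to 1983513, minus strand). The groups did not overlap, but CCI 2 and sham 3 were nearly equal and sham 1 rested on 36 reads. Its log2 fold change of 1.02 (SE 0.47, 95% interval -0.11 to 2.15, unadjusted p = 0.0693) did not pass the test. It was 1.48 (unadjusted p = 0.0224) without sham 3, 0.67 without sham 1 and 0.76 without CCI 1, and DESeq2 gave 1.02 with an unadjusted p of 0.0362.

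**Figure D2:**
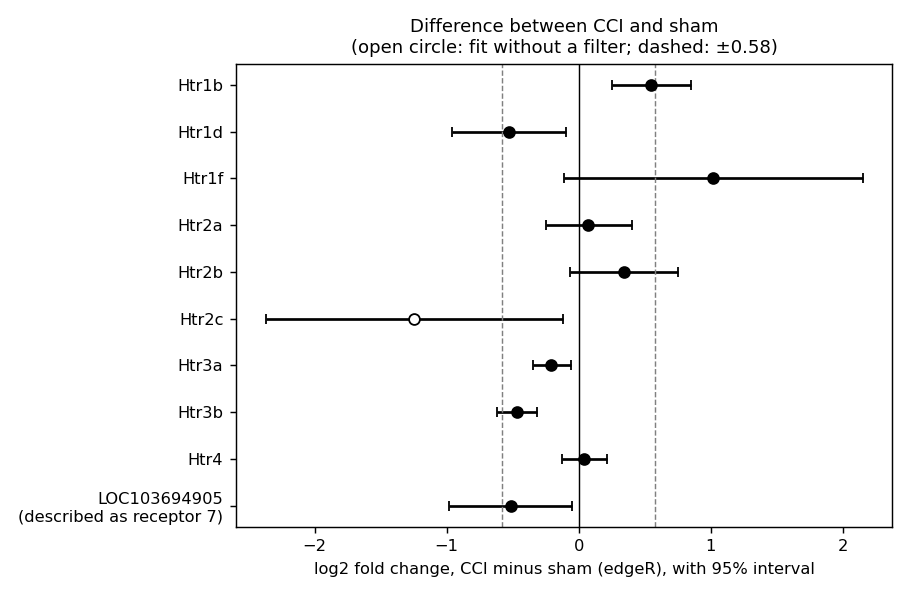
Log2 fold change of CCI against sham (horizontal axis) for each receptor row, as points with 95% intervals from the edgeR fit, with dashed lines at the study's fold limit of 0.58 in either direction. Intervals of Htr1b (0.25 to 0.85), Htr1d (-0.96 to -0.10), Htr3a (-0.35 to -0.06) and Htr3b (-0.62 to -0.32) exclude 0, as does that of Htr2c (-2.37 to -0.12, open point, fit without a filter) and of the row described as receptor 7 (-0.98 to -0.05).

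Among the Gq/11-coupled receptors, Htr2a, known for its part in inflammatory pain and in platelet activation, showed no detectable difference. It was counted at 10.4, 11.8 and 9.53 CPM in CCI 1, 2 and 3 and at 10.3, 11.1 and 8.75 CPM in sham 1, 2 and 3 (chromosome 15, 56666012 to 56735382, plus strand). The groups overlapped throughout. Htr2a had a log2 fold change of 0.07 with a 95% interval of -0.25 to 0.40 (unadjusted p = 0.6), so a difference as large as that of Htr1b was outside the interval. Htr2b, a receptor also found in vessel walls, was at 3.27, 2.94 and 2.52 CPM in CCI against 2.15, 2.28 and 2.47 CPM in sham. The groups did not overlap but CCI 3 and sham 3 almost met, and the log2 fold change of 0.34 (95% interval -0.07 to 0.75, unadjusted p = 0.0913) did not pass the test. The Htr2b row (chromosome 9, 93112805 to 93125014, minus strand) lies inside Psmd1, a proteasome gene on the plus strand with 124062 reads over the 6 libraries, where Htr2b had 1269. Without strand in the counting, reads of these genes cannot be told apart, so the level of Htr2b is less certain.

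Htr2c, known mainly from the brain and the choroid plexus, had 35, 47 and 114 reads in CCI 1, 2 and 3 and 151, 177 and 166 reads in sham 1, 2 and 3. That corresponds to 0.43, 0.582 and 1.5 CPM against 1.72, 2.23 and 2.01 CPM (chromosome X, 118084890 to 118318039, plus strand). All CCI libraries were below all sham libraries, with CCI 3 close under sham 1. At a mean FPKM of 0.291 the row was not tested in the fit with the filter. In the fit without a filter the log2 fold change was -1.25 (SE 0.47, 95% interval -2.37 to -0.12, unadjusted p = 0.034), with an adjusted p of 0.506 by edgeR's quasi-likelihood test (Benjamini-Hochberg). It passed the study's limits there, as the only one of 9 members, where 1.3% of all 35757 rows with reads were called lower. Without CCI 3 the difference was -1.97 (unadjusted p = 0.000633), and without any other single library the unadjusted p lay between 0.0519 and 0.0987. Markers of other places where Htr2c is made had reads in both groups, and their part in the Htr2c reads was not tested. Over 5 choroid plexus genes the sum was 14.4 to 16.6 CPM in CCI and 15.0 to 17.5 CPM in sham (Otx2 at 0, 2 of 5 tested, 0 called). Over 7 genes of central nervous tissue the sum was 8.65 to 9.67 against 6.8 to 8.3 CPM (2 tested, 0 called).

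The channel subunits had the highest levels of all members. Htr3a, which can form the channel on its own, was counted at 60.7, 64.1 and 64.0 CPM in CCI 1, 2 and 3 and at 68.7, 75.5 and 73.7 CPM in sham 1, 2 and 3. Htr3b, which joins Htr3a and alters the conductance of the channel, was at 47.3, 49.0 and 44.0 CPM in CCI and at 65.7, 65.7 and 63.4 CPM in sham. For both genes every CCI library was below every sham library. The log2 fold change of Htr3a was -0.21 (SE 0.06, 95% interval -0.35 to -0.06, unadjusted p = 0.0121, adjusted p = 0.305). That of Htr3b was -0.47 (SE 0.06, 95% interval -0.62 to -0.32, unadjusted p = 0.000178), with an adjusted p of 0.0789 by edgeR's quasi-likelihood test (Benjamini-Hochberg), the lowest of the members. In means, CCI was at 86.6% of sham for Htr3a and at 72.0% for Htr3b. Both kept an unadjusted p under 0.05 with any single library left out, between -0.25 and -0.18 for Htr3a and between -0.51 and -0.43 for Htr3b. When protein-coding rows alone were fitted, Htr3b had an adjusted p of 0.0453.

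These genes are neighbours on the minus strand of chromosome 8 (Htr3a at 53211438 to 53223804, Htr3b at 53248705 to 53278180), 24900 bases apart with no other row between. Their difference was unequal. Htr3b made up 38.4, 38.0 and 35.5% of the summed FPKM of the pair in CCI 1, 2 and 3 and 43.4, 41.1 and 40.8% in sham 1, 2 and 3. The CCI mean was 37.3 ± 1.58% and the sham mean 41.8 ± 1.4% (SD, n = 3 each), a difference of -4.43 percentage points with no overlap. A two-sided exact permutation test gave p = 0.1, the smallest that 3 against 3 allows. Leaving out each library gave differences of -5.0 to -3.53 points.

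**Figure D3:**
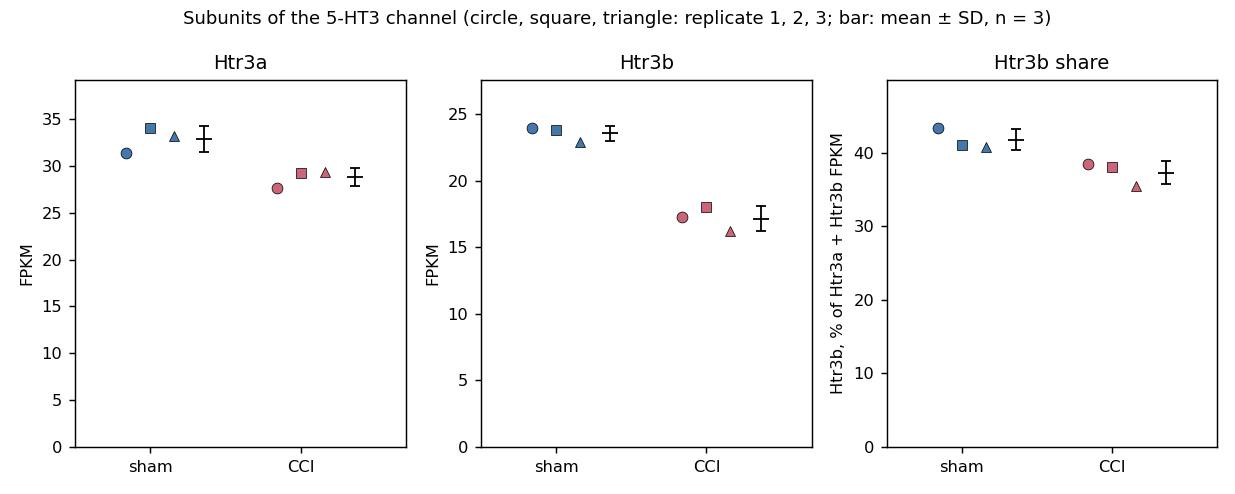
Level of Htr3a and Htr3b in FPKM, and the share of Htr3b in the summed FPKM of the pair in percent (vertical axes from 0), in each sham and CCI library with the mean and SD. Every CCI library lies below every sham library in all panels, with Htr3b at 35.5 to 38.4% of the pair in CCI and 40.8 to 43.4% in sham.

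The channel genes also made up most of the summed level of the 9 genes found by symbol. The 9 genes together stood at 63.6, 64.6 and 64.8 FPKM in CCI 1, 2 and 3 and at 73.6, 76.4 and 74.7 FPKM in sham 1, 2 and 3. The difference of means was -10.6 FPKM (exact permutation p = 0.1, the smallest possible). Without Htr3a and Htr3b the sum was 18.3 ± 1.01 FPKM in CCI and 18.5 ± 0.318 FPKM in sham (SD, n = 3 each, exact permutation p = 0.9). That remainder mixes genes that differed in opposite directions. In it Htr1d had a mean of 5.44 FPKM in CCI against 7.78 in sham. Htr1b had 3.79 against 2.56 FPKM and Htr1f 1.23 against 0.597 FPKM. Htr3a and Htr3b held 71.5 ± 1.6% of the summed FPKM of the 9 genes in CCI and 75.3 ± 0.37% in sham.

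Marker levels were set beside these values, and their part in the results was not tested. Among the sensory neuron markers Nefh stood at 2170 to 2580 CPM in CCI and 3260 to 3670 CPM in sham, and the sum of the other 13 at 5270 to 5410 against 5090 to 5780 CPM. At an unadjusted p under 0.05, 1 of 14 markers was higher and 5 were lower, and the median log2 fold change was -0.15. Large myelinated neuron markers summed to 3380 to 3750 CPM in CCI and 4420 to 4880 CPM in sham, with 1 of 5 tested called lower. Nefh is on this list too, and without it the sums were 961 to 1250 against 1080 to 1210 CPM and overlapped. These sums include Spp1, at 446 to 752 CPM in CCI against 464 to 514 CPM in sham. At an unadjusted p under 0.05 (edgeR), 3 of the 5 markers were lower and 0 higher. The lower ones were Nefh, Pvalb (log2 fold change -0.69) and Ntrk3 (-0.24). Peptidergic nociceptor markers summed to 948 to 1000 against 935 to 1050 CPM (1 of 6 called higher), and non-peptidergic ones to 636 to 659 against 584 to 599 CPM (0 of 6 called). Markers of pruriceptive neurons summed to 145 to 205 against 131 to 209 CPM (0 of 6 called). The peptidergic sum includes Adcyap1, the gene called, at 96.1 to 154 CPM in CCI against 54.1 to 60.7 CPM in sham. Of the 6 peptidergic markers, 1 was higher and 2 lower at an unadjusted p under 0.05 (edgeR). Those lower were Calca (log2 fold change -0.15) and Trpv1 (-0.19). Of the 6 non-peptidergic markers, 2 were higher, P2rx3 (0.16) and Trpa1 (0.35), and 1 was lower, Mrgprd (-0.2). Both sums thus mix markers that differed in opposite directions.

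Outside the neurons, macrophage markers summed to 114 to 169 CPM in CCI and 85.2 to 111 CPM in sham, with 5 of 10 called higher. Smooth muscle and pericyte markers, from cells in which Htr1b and Htr2b are also known, summed to 274 to 289 against 239 to 269 CPM (0 of 8 called). At an unadjusted p under 0.05 (edgeR), 2 of these 8 were higher and 0 lower. The higher ones were Acta2 (log2 fold change 0.4) and Tagln (0.31), whose row also carries the symbol Sidt2. Endothelial markers summed to 113 to 146 against 127 to 158 CPM (0 of 5 tested called, Cldn5 at 0). Mast cell markers (2 of 9 tested, 0 called, Mcpt1 at 0) summed to 81.6 to 87.4 against 50.5 to 84.2 CPM, nearly all of it Kit, which is not particular to mast cells, with 76.9 to 85.0 against 48.6 to 81.7 CPM. Without Kit the mast cell sum was 2.42 to 4.71 against 1.91 to 3.4 CPM. Hdc of this list lay under the filter, with 115 to 137 reads in CCI and 16 to 71 in sham. In the fit without a filter its log2 fold change was 1.39 (unadjusted p = 0.0355, adjusted p = 0.513 by edgeR), which passed the study's limits. Tpsb2 and Fcer1a had -0.89 and -0.5 in that fit (unadjusted p = 0.327 and 0.717). Fibroblast, satellite glia and Schwann cell markers had 0 calls among 6, 6 and 7 tested, with sums of 1080 to 1830 against 1590 to 1790 CPM, 987 to 1050 against 908 to 983 CPM and 6440 to 8830 against 7920 to 8950 CPM. Of these, 1 satellite glia marker was higher and 1 Schwann cell marker lower at an unadjusted p under 0.05 (edgeR).

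Htr4, which couples to Gs, was level between the groups. It was counted at 43.9, 42.3 and 39.9 CPM in CCI 1, 2 and 3 and at 43.4, 39.5 and 39.7 CPM in sham 1, 2 and 3 (chromosome 18, 57637208 to 57826684, plus strand). The groups overlapped and the log2 fold change was 0.04 (SE 0.07, 95% interval -0.13 to 0.21, unadjusted p = 0.583). Htr4 had 3044 to 3820 reads per library, and a difference of the size seen for Htr3b lay outside the interval.

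Htr7 was not found by its symbol. A row with the symbol LOC103694905 (chromosome 1, 254547620 to 254671778, minus strand) was described in the table as 5-hydroxytryptamine receptor 7, and its protein-coding neighbour on one side, Rpp30, is also the neighbour of Htr7 in GRCr8. It was chosen after its values were seen and is not counted among the members. It had 412, 608 and 629 reads in CCI 1, 2 and 3 and 924, 795 and 764 reads in sham 1, 2 and 3. In CPM this was 5.07 to 8.25 in CCI and 9.24 to 10.5 in sham, with no overlap and CCI 1 the lowest. The log2 fold change was -0.51 (SE 0.19, 95% interval -0.98 to -0.05, unadjusted p = 0.0357, adjusted p = 0.42 by edgeR's quasi-likelihood test (Benjamini-Hochberg)). Without CCI 1 it was -0.33 (unadjusted p = 0.0393), and without any 1 of the sham libraries the unadjusted p lay between 0.0516 and 0.094.

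CCI 1 was the library farthest from the sham mean in 6 of the 7 receptor genes whose groups did not overlap, Htr2c included and Htr3b being the exception. Over all tested rows without overlap this held in 49.4%. CCI 1 was also the library with the highest summed level of injured neuron markers, 726 CPM against 490 and 421 CPM in CCI 2 and CCI 3. Whether the receptors followed the extent of injury was not tested.

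**Figure D4:**
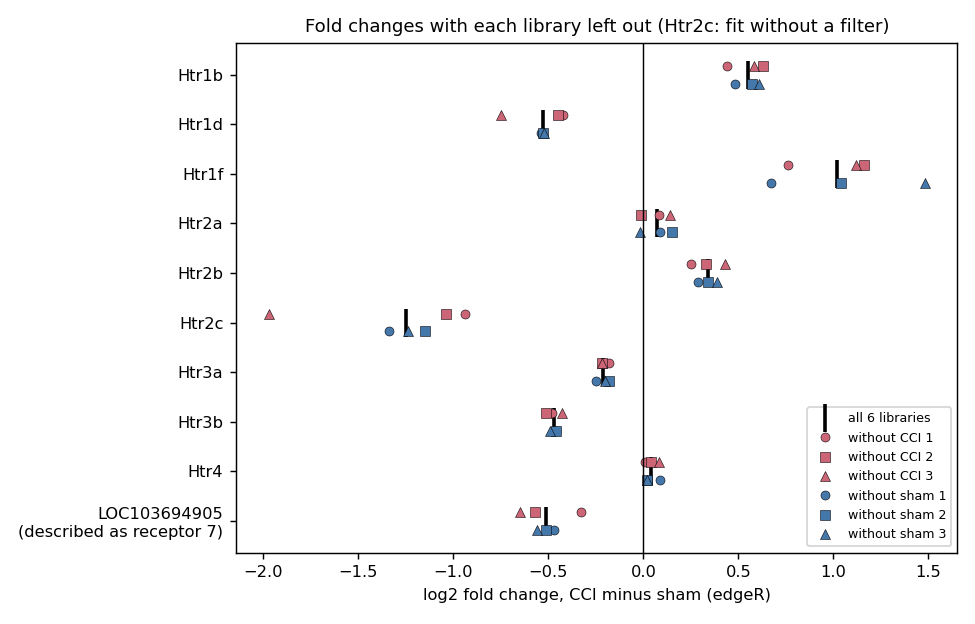
Log2 fold change of CCI against sham (horizontal axis) for each receptor row with all 6 libraries (black bar) and with each library left out (symbols, red for CCI and blue for sham). Htr3b moved only between -0.51 and -0.43 and Htr3a between -0.25 and -0.18, whereas Htr1f ranged from 0.67 to 1.48 and Htr2c from -1.97 to -0.94.

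The other receptors of the family were scarce. Htr1a (38 to 121 reads per library) and Htr5b (96 to 160 reads) were tested, with log2 fold changes of -0.53 (unadjusted p = 0.304) and 0.10 (unadjusted p = 0.733). Htr5a had 34 to 70 reads per library, and Htr6 had 0 reads in 4 libraries and 8 and 7 reads in sham 2 and sham 3. Both were under the filter.

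Genes that make and remove serotonin were examined next. Over 65 listed genes of the pathway and other receptors, 57 were tested, of which 4 were called higher and 0 lower at the study's limits, beside 2.57% and 1.26% of all rows. The median over these genes was 0.01 (log2). Without the fold limit, 8 were higher and 5 lower at an unadjusted p under 0.05, beside 5.57% and 5.18% of all rows, and 0 had an adjusted p under 0.05 in the edgeR fit. The called genes were Tph2, Gch1 and Spr of synthesis and Maoa of breakdown.

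Tph2, the tryptophan hydroxylase of neurons and the rate-limiting enzyme of serotonin synthesis there, rose at those limits. It had 26.1, 17.7 and 13.3 CPM in CCI 1, 2 and 3 and 8.49, 9.5 and 7.93 CPM in sham 1, 2 and 3, a log2 fold change of 1.14 (SE 0.24, unadjusted p = 0.00283). Gch1, which starts the synthesis of tetrahydrobiopterin, the cofactor of the hydroxylases, also rose. It had 5.88, 2.53 and 2.26 CPM in CCI against 0.762, 1.18 and 0.629 CPM in sham, a log2 fold change of 2.05 (SE 0.46, unadjusted p = 0.00342). For both genes every CCI library was above every sham library, with CCI 1 the highest. The study itself singled out some of these genes on the same samples, so their direction is not independent evidence.

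Spr, the last enzyme of tetrahydrobiopterin synthesis, rose with a log2 fold change of 0.77 (SE 0.23, unadjusted p = 0.0136), but the call was lost without CCI 1. Qdpr, which regenerates the cofactor, was 0.44 higher (unadjusted p = 0.0127) and under the fold limit. Tph1, the hydroxylase of other tissues, had a log2 fold change of 0.21 (95% interval -0.29 to 0.72, unadjusted p = 0.345), and Pts had 0.16 (unadjusted p = 0.4). Ddc, the decarboxylase that completes serotonin from the hydroxylated precursor, had 9 to 40 reads per library and was not tested. The serotonin transporter gene Slc6a4, with 10 to 38 reads, was not tested either. Of 2 transporters tested 0 were called, and Slc18a2, the vesicular carrier, had a log2 fold change of 0.09 (unadjusted p = 0.523).

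Maoa, the monoamine oxidase that prefers serotonin, rose from 60.5, 64.3 and 56.0 CPM in sham 1, 2 and 3 to 125, 95.2 and 85.8 CPM in CCI 1, 2 and 3. In log2 terms the fold change was 0.76 (SE 0.15, unadjusted p = 0.00149, adjusted p = 0.151 by edgeR's quasi-likelihood test (Benjamini-Hochberg)). Maob, which lies beside it, had -0.09 (95% interval -0.29 to 0.10, unadjusted p = 0.297), and Maoa was the only one of 5 breakdown genes called. Macrophage and injured neuron markers were higher in the same libraries, as given above, and their part in these changes was not tested.

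**Figure D5:**
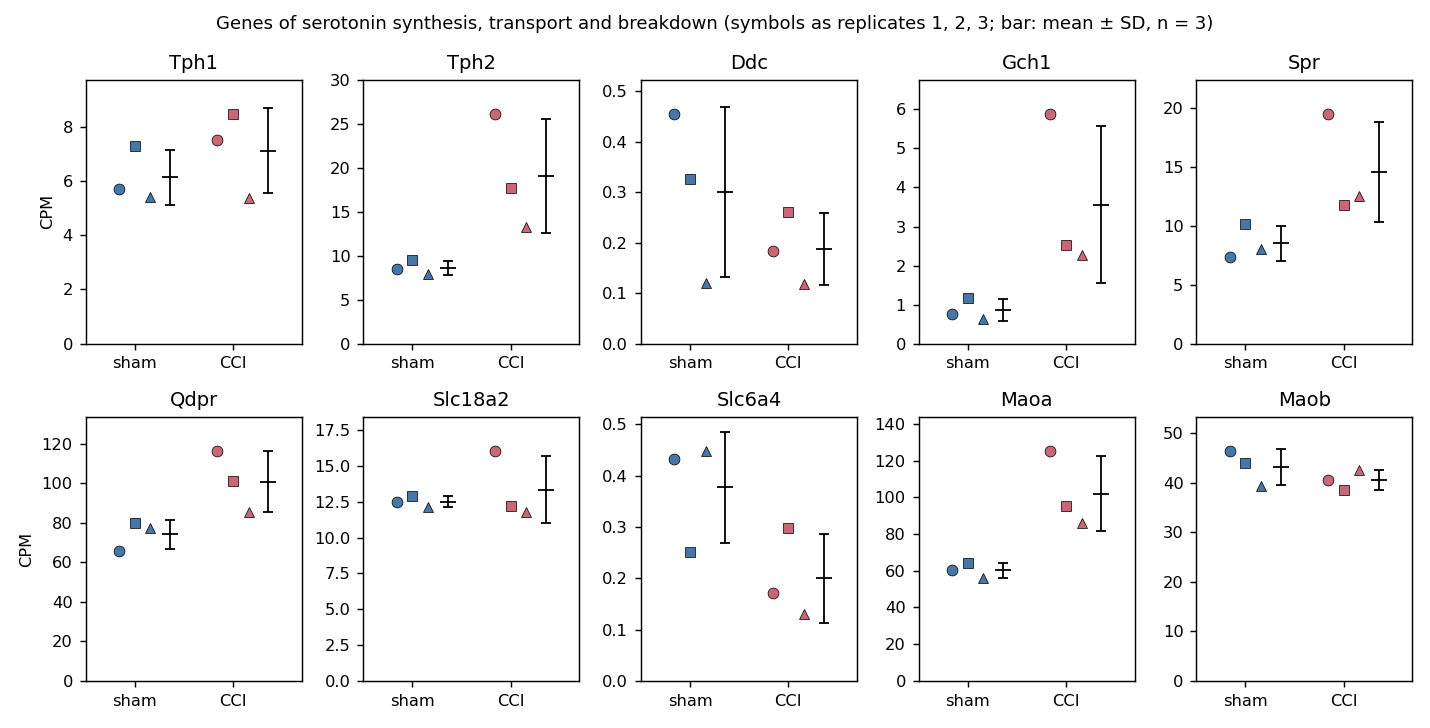
Level in CPM (vertical axis from 0, a scale for each panel) of genes of serotonin synthesis, transport and breakdown in 3 sham (blue) and 3 CCI (red) libraries, with the mean and SD. Tph2, Gch1, Spr, Qdpr and Maoa show no overlap between groups, with Tph2 at 13.3 to 26.1 CPM in CCI and 7.93 to 9.5 CPM in sham, whereas Tph1, Slc18a2 and Maob overlap.

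Downstream of the receptors, 0 of 33 tested G-protein and effector genes passed the study's limits, beside 2.57% (higher) and 1.26% (lower) of all rows. At an unadjusted p under 0.05 alone, 2 were higher and 4 lower, beside 5.57% and 5.18% of all rows. The 2 higher were Gnai2 of the Gi/o list, by 0.12 (unadjusted p = 0.0477, edgeR), and Adcy2 of the Gs list, by 0.18 (unadjusted p = 0.0467). Rapgef4, a cyclic AMP sensor on the Gs side, had the largest difference of those tested, at -0.54 (unadjusted p = 0.00497), and passed the limits without CCI 1 or without sham 3. Prkaca, the catalytic subunit of protein kinase A, differed by -0.24 (unadjusted p = 0.00547), Gnai1, an inhibitory G-protein subunit, by -0.24 (unadjusted p = 0.0091) and Prkce, a protein kinase C of the Gq/11 branch, by -0.25 (unadjusted p = 0.0056). Plcb2, a phospholipase C of the Gq/11 branch, lay under the filter with 167, 185 and 183 reads in CCI 1, 2 and 3 and 133, 86 and 70 reads in sham 1, 2 and 3. In the fit without a filter its log2 fold change was larger, 0.97 (SE 0.26, unadjusted p = 0.00803, adjusted p = 0.331 by edgeR), and it was called higher there, as were 2.54% of all rows. Among 9 chaperones and partners of the receptors 0 were called. Ric3, a chaperone of the channel, had a log2 fold change of 0.00 (unadjusted p = 0.991) and S100a10, which binds Htr1b and Htr4, had 0.13 (unadjusted p = 0.0651). The arrestins Arrb1 and Arrb2, which end receptor signalling, differed by 0.34 (unadjusted p = 0.0122) and -0.16 (unadjusted p = 0.0311).

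The rows most like the channel subunits over the 6 libraries were found by the root mean square difference of centred log2 CPM among 13711 protein-coding rows with a symbol. For Htr3a these were Atp2a2 (0.011), Tmem132e (0.02) and Glg1 (0.023), with log2 fold changes of -0.21, -0.19 and -0.16. For Htr3b they were Ndst4 (0.043), Patj (0.043) and Cnnm1 (0.051), with -0.46, -0.41 and -0.46. This is a description of 6 libraries, which share their group difference.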

How the data were processed

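RNA of 3 CCI and 3 sham rats was sequenced by the authors after ribosomal RNA depletion, from strand-marking libraries read in paired ends. The authors mapped the reads to the rat genome they name V101, and the submitters' processing notes list HISAT2 2.0 and StringTie 1.3.0. The deposited count columns hold whole reads per row without normalization. The deposited FPKM columns were made by the authors from these counts and a row length. Strand use in counting is not given in the sources used here. The table had 0 unused sample columns. A count of 3 reads, taken as the detection floor, equals 0.0341 to 0.0394 CPM by library, and rows without a symbol held 5.37 to 5.72% of reads. These floors cover counting error alone.

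Rows that reached 0.5 FPKM on average were tested with edgeR 4.0.16 (TMM factors, quasi-likelihood test, 2.52 prior degrees of freedom), with p-values adjusted by the Benjamini-Hochberg method over all 26663 rows. Replicates are separate rats by the methods. Single values were compared with a two-sided exact permutation test. The members, lists and tests were chosen with earlier results of these data known. Named genes are all members, list genes called or needed as examples (up to 3 a list by lowest p), and the 3 rows most like the member with the highest FPKM and the member with the lowest p. Some list genes beyond this rule (Htr5a, Htr6, Plcb2, Tph1, Pts, Ddc, Slc6a4, Ric3, Hdc, Tpsb2 and Fcer1a) were named after their values were seen. Alternatives were other scaling, DESeq2 1.42.0, limma 3.58.1 on log2(FPKM + 0.1) and log2(FPKM + 1), other filters, another prior, protein-coding rows alone, a replicate block and leaving out each library. After the data were seen, marker sums were also taken without Nefh or Kit. The fits were tested on simulated data. R 4.3.3 and Python 3.11.15 with pandas 2.3.3, numpy 2.4.6, scipy 1.17.1 and matplotlib 3.10.9 were used. Start regions came from RefSeq (GRCr8), whose coordinates are not those of the table.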

Additional observations from a re-analysis of the deposited data

How the results depend on the processing

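Of 150 alternative values for single receptor rows, 137 kept their direction and side of the study's limits, 6 came to pass the limits, 5 (Htr2c with a library left out) no longer did and 2 reversed, Htr2a at -0.01 without CCI 2 and -0.02 without sham 3 (-0.02 to 0.15 over all libraries left out). At the study's limits 1 member (Htr1f) was called higher with DESeq2 and 1 (Htr2c) lower with no filter. At an unadjusted p, 2 were higher with DESeq2 (Htr1b and Htr1f). At an adjusted p under 0.05, 2 members (Htr1b and Htr3b) were called with DESeq2 and 1 (Htr3b) with protein-coding rows alone. Over all rows, 410 were higher and 161 lower with limma on log2(FPKM + 1), and 353 and 115 with protein-coding rows alone. Adjusted calls over all rows numbered 25 in the edgeR fit, 751 with DESeq2, 14 with a prior without trend, 76 with protein-coding rows alone and 0 with the replicate block. The cause of these shifts was not tested. Same-numbered libraries did not deviate together (r of -0.012, -0.025 and -0.060 across rows). No pairing by number was seen, but these correlations cannot exclude that the rats were paired. With the replicate block, 617 rows were higher and 318 lower, 1 member was higher and 3 lower at an unadjusted p, and the LOC103694905 row had unadjusted p = 0.0583. Leaving out each library gave 0 to 2 members higher and 0 to 1 lower at the study's limits, 1 to 2 higher and 2 to 3 lower at an unadjusted p, and 0 at an adjusted p. It gave 3 to 4 pathway genes higher and 0 to 1 lower. Over all rows it gave 562 to 767 higher, 312 to 421 lower and 6 to 61 at an adjusted p. The Htr3b share differed by -5.0 to -3.53 points and the summed FPKM by -11.3 to -9.82. Depth limits Htr1f and Htr2c most, which had 35 to 205 reads per library.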
